A study of Brassica napus with 6 samples.

Results

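The genes described here are the 608 Brassica napus genes, of 145279 in the deposited table, that have at least one transcript carrying the EggNOG description "G-quadruplex DNA unwinding", an automatic functional label given by sequence similarity. The group was selected on the TPM differences between a hairy and a glabrous line that these same leaves had already shown for some of its copies, so the differences between the lines given below describe the group and are not a test of it. The genome of B. napus joins those of both its diploid ancestors, as subgenomes A and C. The hairy line is DH6-47, for which the labels give about 600 trichomes on a leaf, and the glabrous line is DH6-110; both are doubled haploids, described as near-isogenic, from the parents Quantum/LG3260 and CN113136. Each sample is poly-A RNA from a single, very young leaf 3 of a plant grown at 16 h light and 8 h dark. The TPM columns cover replicates 1 and 3 of both lines, 2 leaves against 2, and replicate 2 of each line was not analysed here. Each line is 1 genotype, so the spread between leaves says nothing of other hairy or glabrous genotypes.

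A G-quadruplex is a folded structure of guanine-rich DNA, and PIF1 helicases, known best from yeast, open such folds during replication and at telomeres. In plants, helicases of this type also occur inside Helitrons, DNA transposons whose large protein joins a replication initiator to a PIF1-like helicase. Plant Helitrons often carry, besides it, genes related to the large subunit of replication protein A (RPA), which coats single-stranded DNA through folds called OB-folds. The values are the authors' TPM, a per-length scale with a nearly equal total in each leaf, added up over all transcripts of a gene.

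Within the group, genes named PIF1 were not among those that reached the filter on low values. In 10 of the 608 genes the protein or the Arabidopsis match of a described transcript was named PIF1, and all 10 were listed at 0 TPM in all 4 leaves. By protein name alone, over any transcript of a gene, it was 11, of which none passed the filter on low values given below. Of the other genes, 28 matched a protein named replication protein or factor A, and a further 111 had an Arabidopsis match annotated as an OB-fold nucleic-acid-binding protein. Another 12 matched a protein named ASY2-like after a meiotic chromosome axis protein, 209 had no protein match in the table, and 238 matched proteins that are mostly called uncharacterized. A single Arabidopsis gene, AT1G14800, was the match of 125 of the 608. Outside the group, 94 genes of the table had a PIF1-like protein match under other EggNOG descriptions, and 92 of them were listed at 0 in all leaves. The remaining 2 were expressed: BnaA05g044790.4DH at 5.21 and 5.81 TPM in the hairy leaves against 3.81 and 4.82 TPM in the glabrous leaves, and BnaC09g025960.4DH at 4.50 and 1.75 TPM in the hairy against 6.57 and 17.9 TPM in the glabrous leaves. Both sets of leaves lay apart without overlap in these 2 genes, and neither passed the test across all genes described below. Of all tested genes, 21.4% lay apart with the hairy leaves higher and 17.4% with the hairy leaves lower.

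Most of the group was listed at 0 TPM in these leaves. Of the 608 genes, 508 (83.6%) were listed at 0 in all 4 leaves, against 58.3% of all genes in the table. Only 59 (9.70%) reached 1 TPM in at least 2 leaves, the filter for the test across all genes, against 30.5% of the table. The other 41 with a value above 0 stayed below this filter, with a highest single value of 5.19 TPM, in glabrous 3, for BnaC05g031842.4DH. Genes with some other descriptions were also mostly below the filter. It was passed by 14 of 3451 genes described as RNA-mediated transposition (0.406%) and 11 of 288 described as ATP-dependent DNA helicase (3.82%). Of 811 genes described as DNA recombination, 32 passed (3.95%). Within the group, 9 of the 28 RPA-named genes passed (32.1%), 20 of the 111 other OB-fold genes (18.0%), 2 of the 12 ASY2-like genes, 10 of the 209 without a protein match (4.78%) and 18 of the 238 others (7.56%). Among the 59, 25 matched AT1G14800. In 19 of the 59 (32.2%) the best nucleotide match of at least one transcript was a non-coding RNA record, against 1.06% of all 44247 genes that passed the filter. These shares are descriptions of the annotation and were not tested.

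The copies were denser in the C subgenome. By their identifiers, 446 lie on C chromosomes, 154 on A chromosomes and 8 on scaffolds. That is 5.71 per 1000 genes of the table in C and 2.46 per 1000 in A. Each of the 9 C chromosomes, with 4.13 on C03 to 6.92 on C08, held more per 1000 genes than any of the 10 A chromosomes, with 0.881 on A03 to 3.66 on A04. In identifier order 22 pairs of these genes were direct neighbours, and 85 of the 600 genes placed on chromosomes had another one within 5 genes. The filter was passed by 38 of the C copies (8.52%) and 19 of the A copies (12.3%), or 0.487 and 0.303 per 1000 genes of the table, and these differences were not tested. A09, with 30 copies, had 7 that passed, more than any other chromosome in the table. None of the copies on A07 or A10 passed. The order of the genes is that of the identifiers, and the build behind it is unknown.

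**Figure D1:**
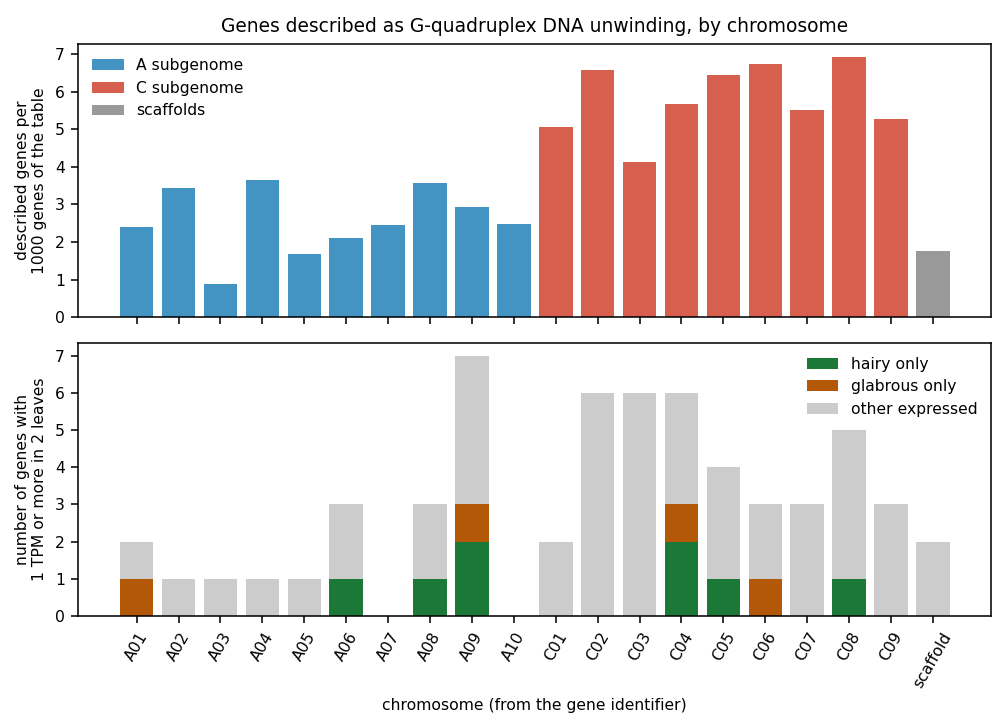
The upper panel gives the number of described genes per 1000 genes of the table on each chromosome, and the lower panel the number of described genes with 1 TPM or more in at least 2 leaves, split into those detected in the hairy line only, in the glabrous line only, and others. All C chromosomes stand above all A chromosomes in the upper panel, while A09 has the tallest bar, 7 genes, in the lower one.

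Summed over all 608 genes, the group made up 553 TPM in hairy 1 and 340 TPM in hairy 3, against 387 TPM in glabrous 1 and 560 TPM in glabrous 3. The ranges of the lines overlapped in part, with hairy 3 below both glabrous leaves and glabrous 3 above both hairy leaves, and the difference between the leaves of each line was larger than that between the lines. The C copies summed to 404 and 245 TPM in the hairy leaves against 248 and 372 TPM in the glabrous leaves, and the A copies to 140 and 89.3 TPM against 129 and 180 TPM. Within the hairy line, 50 of the 59 expressed genes (84.7%) were higher in replicate 1 than in replicate 3, against 68.8% of all 44247 genes, by a median of 0.57 on the log2(TPM + 1) scale against 0.27 for all genes. Within the glabrous line, 43 of the 59 (72.9%) were higher in replicate 3 than in replicate 1, against 70.9% of all genes. The median difference there was 0.31 for the 59 against 0.39 for all genes.

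Across all genes, the lines were compared with limma on log2(TPM + 1), as hairy minus glabrous, and a gene was called at a Benjamini-Hochberg adjusted p under 0.05. Over all tested genes, 5.24% were called higher and 4.48% lower in the hairy line. Of the 59 expressed genes of the group, 13 were called higher and 8 lower. The 2 hairy leaves lay above both glabrous leaves in 13 and below them in 16, where all tested genes gave 21.4% and 17.4%, and the lines overlapped in the other 30. In the authors' deposited table, 10 of the 125 described transcripts with a p-value had an adjusted p under 0.05, 6 higher and 4 lower, against 4.05% of all transcripts with one. Because this comparison led to the choice of the group, nothing is read from the difference between any of these shares. The median log2 difference was -0.19 over the 59 genes and 0.03 over all tested genes, and the range was -3.68 to 4.74, with a median SE of 0.46. With 1 leaf left out in turn, 4 (without hairy 1) to 8 (without glabrous 3) were called higher and 2 (without either hairy leaf) to 5 (without glabrous 1) lower. The calls over all genes fell too, to 1413 without hairy 1, 1426 without hairy 3, 2607 without glabrous 1 and 3746 without glabrous 3, against 4301 with all leaves. In the same fits the median moved between -0.56 (without hairy 1) and 0.17 (without glabrous 3), changing sign when hairy 3 (0.16) or glabrous 3 was left out. Single leaves, perhaps only technically different, are the replicates behind the p-values. The sequencing depth behind the TPM is unknown, so a value listed at 0 carries no detection limit.

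Copies seen in one line only were defined as having at least 1 TPM in both leaves of that line and under 0.1 TPM in both leaves of the other. There were 8 in the hairy line and 4 in the glabrous line, on 8 chromosomes. Over all tested genes, 1.39% were hairy-only and 1.67% glabrous-only by the same rule, and again nothing is read from the comparison. In all 12, every transcript carried the description. TPM cannot tell a gene that is missing from one line's genome from one that is present and silent, or from one whose reads were placed on another copy.

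Of the 8 hairy-only copies, 5 were OB-fold genes matching AT1G14800. The C04 gene BnaC04g081390.4DH was the most abundant, at 30.4 and 24.8 TPM in the hairy leaves against 0.05 and 0.08 TPM in the glabrous leaves, a log2 difference of 4.74 (SE 0.47). Nearly all of it came from the second of its 2 transcripts, at 30.2 and 24.5 TPM in the hairy leaves and listed at 0 in both glabrous leaves. Its protein record was shared with a pair of scaffold genes, of which BnaS00008g0440.4DH read 0.13 and 0.19 TPM in the glabrous leaves and was listed at 0 in the hairy leaves. A second C04 gene, BnaC04g024902.4DH, read 14.9 and 9.73 TPM in the hairy leaves against 0.03 and 0 TPM in the glabrous leaves (log2 difference 3.69, SE 0.47). Both C04 genes thus stood above 9 TPM in each hairy leaf and near 0 in each glabrous leaf.

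The other 3 hairy-only OB-fold copies matched one and the same protein record, LOC106371438. BnaA08g043650.4DH read 11.7 and 7.73 TPM, BnaA09g078280.4DH 7.35 and 5.37 TPM, and BnaA06g017470.4DH 5.01 and 1.66 TPM in the hairy leaves, and all 3 were listed at 0 in both glabrous leaves. The fourth and last gene of the group with this record, BnaA04g023392.4DH, read 3.91 and 1.43 TPM in the hairy leaves against 0 and 0.15 TPM in the glabrous leaves, and so fell just outside the rule. Together the 4 copies, on 4 A chromosomes, summed to 28.0 and 16.2 TPM in the hairy leaves against 0 and 0.15 TPM in the glabrous leaves. One further gene of the table, BnaA02g042000.4DH, had the same record as its nucleotide match but another description, and it overlapped between the lines, at 2.22 and 1.49 TPM in the hairy leaves against 1.53 and 2.57 TPM in the glabrous leaves. If the 4 copies are alike in sequence, which was not examined, their reads may be placed on any of them, and how many of the 4 loci were transcribed was not tested.

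Not every shared record behaved this way. Of the pair matching LOC108869867, BnaA08g027190.4DH read 15.5 and 10.0 TPM in the hairy leaves against 2.79 and 0.42 TPM in the glabrous leaves (log2 difference 2.54, SE 0.56), while the leaves overlapped for BnaA09g070480.4DH, at 21.8 and 9.82 TPM against 13.0 and 10.4 TPM. Of the pair matching LOC125590245, BnaC07g026630.4DH read 4.84 and 2.99 TPM in the hairy leaves against 0.13 and 0.38 TPM in the glabrous leaves (1.95, SE 0.44). Its partner BnaC03g117560.4DH was nearly level, at 23.0 and 16.0 TPM in the hairy against 16.0 and 19.1 TPM in the glabrous leaves. In both pairs one copy was higher in both hairy leaves and the other overlapped. Of the pair matching LOC106389136, both copies were lower in both hairy leaves. BnaC07g063300.4DH read 11.9 and 6.00 TPM in the hairy against 12.9 and 16.6 TPM in the glabrous leaves, and BnaC04g054790.4DH 0.18 and 0 against 1.83 and 3.46 TPM. The expressed copies of LOC106400861 overlapped. BnaA06g011682.4DH read 4.56 and 2.71 against 1.79 and 3.38 TPM, and BnaA09g001992.4DH 2.17 and 1.58 against 2.57 and 2.14 TPM. The record with the most copies in the group, LOC125587509, was shared by 20 genes on C chromosomes, and only BnaC06g012950.4DH among them had any TPM.

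**Figure D2:**
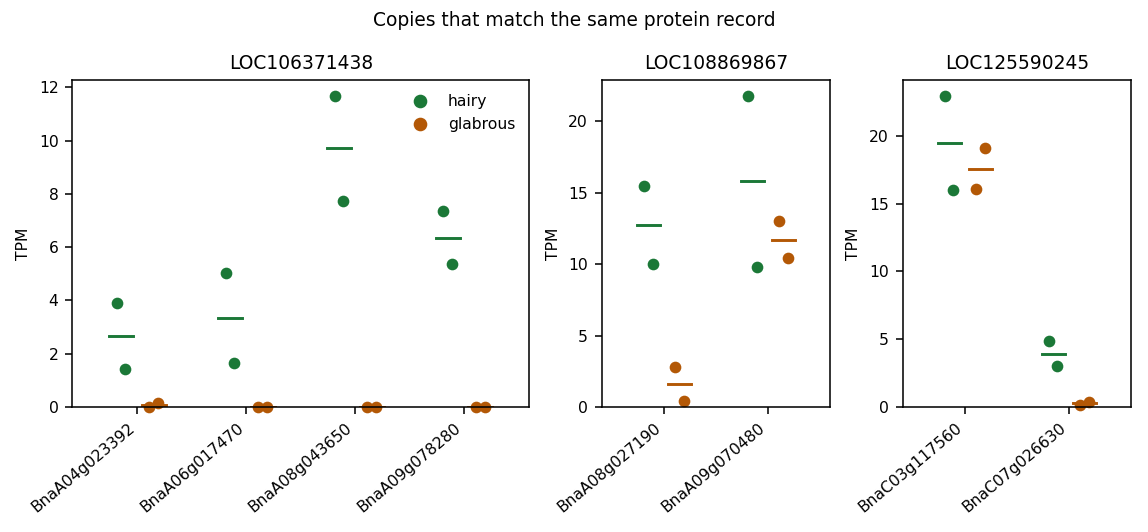
TPM of the copies that match each of 3 protein records, with points for the 2 hairy leaves (left of each pair) and the 2 glabrous leaves (right), and lines for their means. All 4 copies of LOC106371438 lie above 1 TPM in the hairy leaves and at 0.15 TPM or less in the glabrous leaves. The other 2 records shown each have one copy whose leaves overlap. LOC106389136 and LOC106400861 are not shown.

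The remaining 3 hairy-only copies were of other kinds and lower. BnaC05g068700.4DH, named after an RPA large subunit, read 4.54 and 3.15 TPM in the hairy leaves. BnaA09g004882.4DH, ASY2-like, read 1.69 and 1.60 TPM, and the C08 gene BnaC08g072390.4DH, uncharacterized, 1.92 and 1.15 TPM. All 3 were listed at 0 in both glabrous leaves. The last of these has a cyclin-A2-3 transcript as its best nucleotide match, so its description and its nearest known transcript differ.

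The 4 glabrous-only copies included 1 abundant gene. BnaA09g032780.4DH, an OB-fold gene, was listed at 0 and 0.06 TPM in the hairy leaves against 12.3 and 12.0 TPM in the glabrous leaves (log2 difference -3.68, SE 0.46). The other 3 were listed at 0 in both hairy leaves and were low in the glabrous leaves: BnaA01g010592.4DH, without a protein match, at 1.52 and 2.95 TPM, BnaC04g071240.4DH, RPA-named, at 1.28 and 3.15 TPM, and BnaC06g012950.4DH, uncharacterized, at 2.27 and 1.84 TPM. At 2 TPM instead of 1 TPM as the lower bound, 5 hairy-only copies and 1 glabrous-only copy were left.

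A further 6 copies lay just outside the rule, with 1 TPM or more in both leaves of one line and less than 0.5 TPM in the other. Besides BnaA04g023392.4DH and BnaC07g026630.4DH these were the RPA-named BnaC08g012570.4DH, at 9.53 and 8.68 TPM in the hairy leaves against 0 and 0.18 TPM in the glabrous leaves, and BnaA09g010880.4DH, without a protein match, at 0.07 and 0.11 TPM in the hairy leaves against 3.39 and 6.03 TPM in the glabrous leaves. The last 2 owed nothing to the description. In BnaC03g071252.4DH, at 8.65 and 4.99 TPM in the hairy leaves against 0 and 0.11 TPM in the glabrous leaves, all of the TPM came from transcripts with a KIX domain, which resemble a Mediator subunit. In BnaC04g054790.4DH, at 0.18 and 0 TPM in the hairy leaves against 1.83 and 3.46 TPM in the glabrous leaves, all of it came from a transcript with no description. Over the 59 expressed genes, the described transcripts gave all of the TPM in 51, part of it in 2 and none in 6. With the described transcripts alone, 53 genes passed the filter, 12 were called higher and 7 lower.

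**Figure D3:**
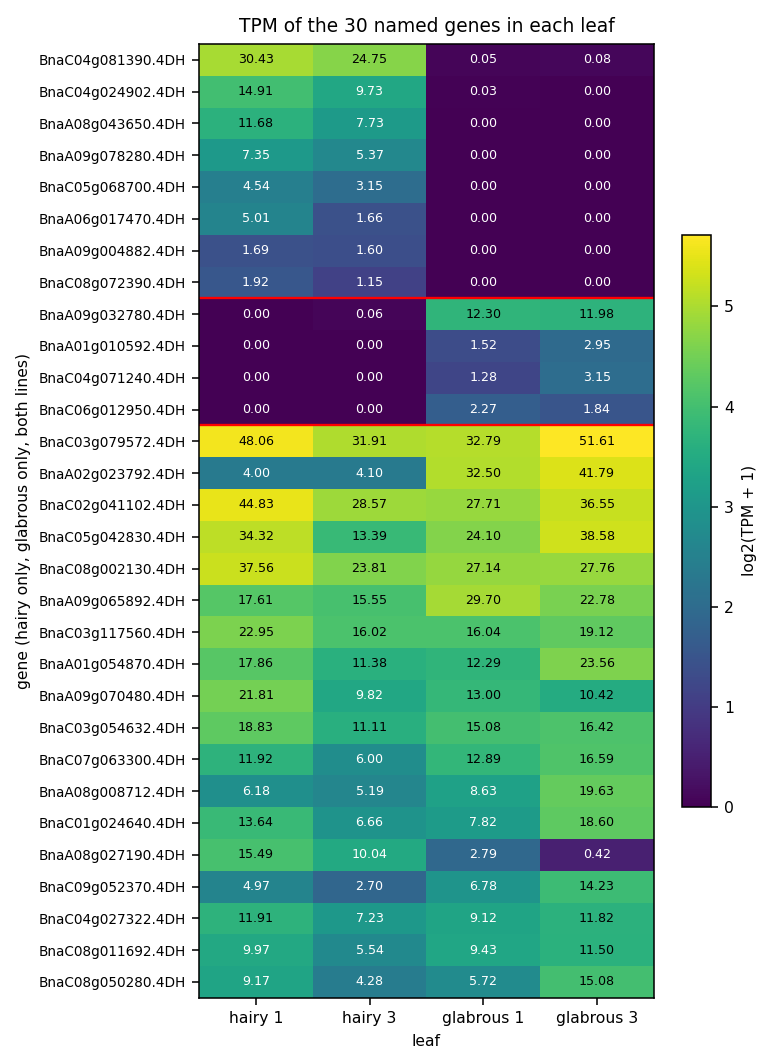
TPM in each of the 4 leaves (columns, hairy leaves left of glabrous leaves) for the 30 genes named by rule, coloured by log2(TPM + 1), with red lines between the hairy-only genes, the glabrous-only genes and the most abundant of the others. The 8 hairy-only genes are at or below 0.08 TPM in the glabrous leaves, and every gene of the lowest block has 0.42 TPM or more in each leaf.

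Of the 21 expressed genes with a mean of at least 10 TPM in either line, 12 overlapped between the lines. In the others both hairy leaves were higher in 3 and lower in 6. Over all tested genes these shares were 21.4% and 17.4%. The most abundant, BnaC03g079572.4DH, uncharacterized, read 48.1 and 31.9 TPM in the hairy leaves against 32.8 and 51.6 TPM in the glabrous leaves. The OB-fold genes BnaC02g041102.4DH, at 44.8 and 28.6 TPM against 27.7 and 36.5 TPM, and BnaC08g002130.4DH, at 37.6 and 23.8 TPM against 27.1 and 27.8 TPM, overlapped in the same way, hairy leaves first. So did the RPA-named BnaC03g054632.4DH, at 18.8 and 11.1 TPM in the hairy against 15.1 and 16.4 TPM in the glabrous leaves. One without overlap was BnaA09g065892.4DH, an OB-fold gene, at 17.6 and 15.6 TPM in the hairy leaves against 29.7 and 22.8 TPM in the glabrous leaves (-0.62, SE 0.38), and it was not called. BnaC05g042830.4DH, RPA-named, at 34.3 and 13.4 TPM against 24.1 and 38.6 TPM, and BnaA01g054870.4DH, at 17.9 and 11.4 TPM against 12.3 and 23.6 TPM, owed all of their TPM to transcripts described as DNA recombination.

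A clear exception was BnaA02g023792.4DH, an OB-fold gene matching AT1G14800 with a single transcript. It read 4.00 and 4.10 TPM in the hairy leaves against 32.5 and 41.8 TPM in the glabrous leaves (log2 difference -2.91, SE 0.41). It was present in all 4 leaves and had the largest difference among the genes expressed at 1 TPM or more in every leaf. The other named genes, BnaC07g063300.4DH, BnaA08g008712.4DH, BnaC01g024640.4DH, BnaC09g052370.4DH, BnaC04g027322.4DH, BnaC08g011692.4DH and BnaC08g050280.4DH, had log2 differences of -0.72, -1.08, -0.31, -1.21, -0.14, -0.43 and -0.51, none of them called. Among the 29 expressed genes not named by rule, 7 were called, where 9.72% of all tested genes were called in either direction, from which nothing is read. The differences of the 29 ran from -2.35 to 3.22, and no leaf exceeded 16.3 TPM.

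The genes around the one-line copies were then compared. For each of the 12, the 10 nearest expressed genes on either side in identifier order, leaving out members of the group, were taken. Of these 240 neighbours 23 were called (9.58%), 19 higher and 4 lower in the hairy line, against 9.72% of all tested genes in both directions together. Around the other 47 expressed genes of the group, 7.31% of 834 neighbours were called, 49 higher and 12 lower. No neighbour was called around BnaC04g081390.4DH, BnaA06g017470.4DH or BnaC06g012950.4DH, and their neighbours' median log2 differences were -0.07, 0.36 and 0.03. Of the 20 neighbours of the hairy-only BnaC04g081390.4DH, however, 2 were glabrous-only by the detection rule. There was 1 glabrous-only neighbour each around BnaA09g032780.4DH and BnaA09g078280.4DH, and 1 hairy-only neighbour each around BnaC05g068700.4DH and BnaC04g071240.4DH. Around BnaC08g072390.4DH, 5 of 20 neighbours were called higher and 4 were themselves hairy-only, and around BnaA09g004882.4DH 5 of 20 were called higher. The median of the neighbours' differences was 0.73 and 0.92 in these places. Around the remaining copies it ran from -0.52, at the glabrous-only BnaA09g032780.4DH, to 0.55, at the hairy-only BnaA09g078280.4DH. The neighbours were not equally close. Those of BnaA09g032780.4DH ran from BnaA09g031420.4DH to BnaA09g042940.4DH, and those of BnaC04g081390.4DH from BnaC04g081050.4DH to BnaC04g081780.4DH.

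**Figure D4:**
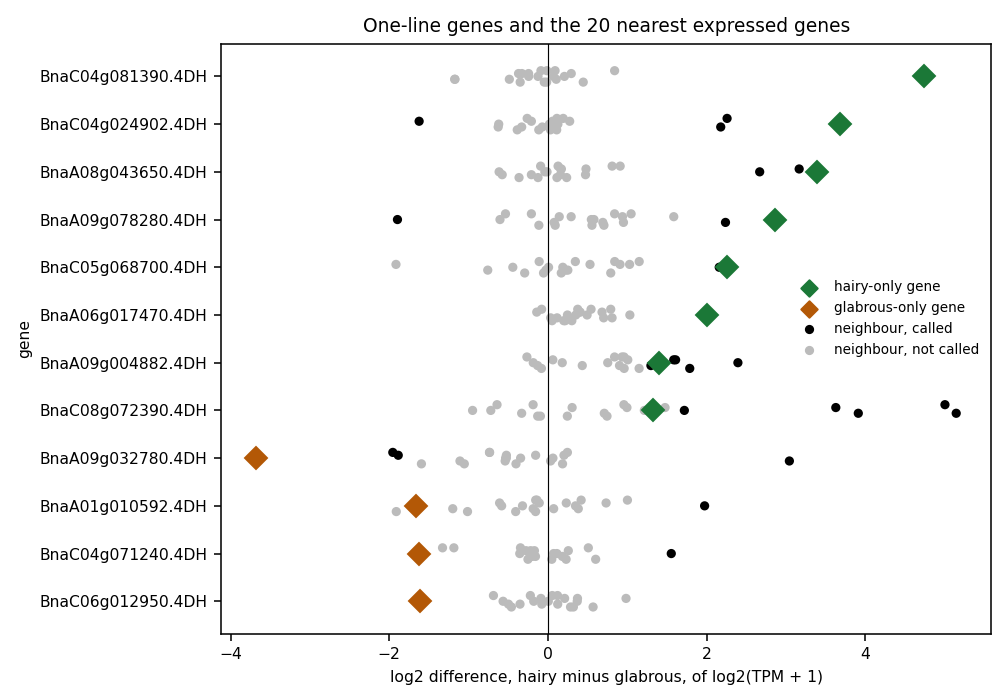
Log2 difference, hairy minus glabrous, of each of the 12 one-line genes (diamonds) and of its 20 nearest expressed neighbours in identifier order (points, black where called). Most neighbours lie near 0 beside one-line genes that lie beyond 1.3 in either direction, and BnaC08g072390.4DH has 4 called neighbours above 3.

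Genes for context were taken from 3 lists of Arabidopsis identifiers: other helicase and fork genes, single-strand binding and telomere genes, and transposon silencing genes. By the same test, 5.24% of all tested genes were called higher and 4.48% lower. Of 37 tested copies of other helicase and fork genes, 4 had an unadjusted limma p under 0.05, and the median log2 difference was -0.05. After adjustment, 1 was called higher and 1 lower. The higher one was a copy of RECQL1, a RecQ helicase (BnaC05g080482.4DH), at 1.98 and 3.37 TPM in the hairy against 0 and 0.05 TPM in the glabrous leaves (log2 difference 1.82, SE 0.40, limma adjusted p = 0.0118). The lower one was a scaffold copy of RTEL1, a helicase of telomeres and recombination (BnaS00007g0040.4DH), at 0.30 and 0 TPM against 3.58 and 5.87 TPM (-2.30, SE 0.44, limma adjusted p = 0.00488). The RECQL1 call was lost without any 1 of the 4 leaves, with log2 differences of 1.54 to 2.09, and the RTEL1 call without either hairy leaf, at -2.49 (without hairy 1) and -2.11 (without hairy 3). Summed over copies, RTEL1 overlapped between the lines, at 28.9 and 10.5 TPM in the hairy against 12.8 and 24.4 TPM in the glabrous leaves.

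Of 34 tested copies of single-strand binding and telomere genes, 2 were called higher and 3 lower, with a median of -0.02. At an unadjusted limma p under 0.05 there were 6. The shares called over all tested genes were 5.24% higher and 4.48% lower. The C09 copy of TERT, the catalytic subunit of telomerase (BnaC09g032470.4DH), read 11.5 and 11.7 TPM in the hairy leaves against 0.07 and 0.11 TPM in the glabrous leaves (3.53, SE 0.46, limma adjusted p = 3.40e-04). The sum over the 4 TERT copies, which includes this one, was 16.0 and 14.1 TPM against 2.36 and 4.15 TPM. The other TERT copies that passed the filter, BnaC09g078690.4DH and BnaA10g030230.4DH, had log2 differences of -0.05 and 0.26 and were not called. The A01 copy of RPA2B, a middle RPA subunit (BnaA01g065110.4DH), read 28.0 and 25.1 TPM in the hairy against 0.07 and 0.10 TPM in the glabrous leaves (4.67, SE 0.47, limma adjusted p = 6.90e-05). The other copy, on a scaffold (BnaS00017g0390.4DH), was the remaining gene called lower and is named after its values were seen, at 19.1 and 16.8 TPM in the hairy against 54.2 and 41.4 TPM in the glabrous leaves (-1.36, SE 0.36, limma adjusted p = 0.0334). That call was lost without either hairy leaf or glabrous 1, with the replicate number as a block, without a variance trend or low-value filter and with TMM-like scaling, at log2 differences of -1.44 (without hairy 1) to -1.17 (without glabrous 1). The sum over both RPA2B copies overlapped, at 47.1 and 41.9 TPM against 54.3 and 41.5 TPM.

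For the counts that follow, the shares over all tested genes were again 5.24% higher and 4.48% lower. Of 16 tested copies of large RPA subunits, 2 were called lower, none was called higher, and the other 14 had log2 differences of -0.74 to 1.06. The highest of these, a C09 copy of RPA1D (BnaC09g008470.4DH, named after its values were seen), read 92.8 and 62.7 TPM in the hairy against 35.7 and 36.4 TPM in the glabrous leaves, with an unadjusted limma p of 0.0148 and an adjusted p of 0.119. The A09 copy of RPA1D (BnaA09g007420.4DH) read 0.13 and 0.03 TPM in the hairy against 28.3 and 29.7 TPM in the glabrous leaves (-4.79, SE 0.47, limma adjusted p = 5.73e-05), while the RPA1D sum overlapped, at 112 and 76.4 TPM against 80.9 and 77.3 TPM. The C05 copy of RPA1B (BnaC05g007630.4DH) read 0.30 and 0 TPM against 13.8 and 29.6 TPM (-4.22, SE 0.52, limma adjusted p = 2.51e-04), and the RPA1B sum was 48.7 and 29.95 TPM in the hairy against 61.5 and 83.4 TPM in the glabrous leaves. Of 28 tested copies of transposon silencing genes, 1 was called higher and none lower, with a median of -0.04 and 2 at an unadjusted limma p under 0.05. It was a C04 copy of AGO4, which guides DNA methylation to transposons (BnaC04g078150.4DH), at 3.76 and 1.61 TPM against 0.05 and 0 TPM (1.78, SE 0.42, limma adjusted p = 0.0178). This call too was lost without any 1 of the leaves, at 1.35 (without hairy 1) to 2.22 (without hairy 3). The AGO4 sum overlapped, at 193 and 97.6 TPM in the hairy against 131 and 208 TPM in the glabrous leaves.

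As a check of the tissue, the leaf genes RBCS1A, RCA and LHCB1.1 summed to 1910 and 2273 TPM in the hairy against 3098 and 4540 TPM in the glabrous leaves, and the flower, seed and root markers each summed to less than 1 TPM in every leaf. The 8 leaf-gene copies that passed the filter all matched RCA or LHCB1.1 and none matched RBCS1A, so the leaf sums rest on RCA and LHCB1.1. GL2, a trichome gene, summed to 3.52 and 3.99 TPM in the hairy against 0.15 and 1.16 TPM in the glabrous leaves. Neither GL2 copy was called (limma adjusted p = 0.183 and 0.0935), and none of the 8 leaf-gene copies was, where 9.72% of all tested genes were. In bulk leaves, fewer cells of a type and less RNA per cell cannot be told apart, and the part of these differences in the results above was not tested.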

How the data were processed

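Leaves were sequenced as poly-A RNA, from RNA with an integrity number above 7 and paired-end inserts of 300 ± 50 bp, per the labels; cutadapt 1.9 is named in the submitters' processing notes, while the aligner, build and gene models are not stated there. The table holds TPM computed by the authors for 185771 transcripts, summing to 954250 to 962645 per leaf. The authors also deposited mean TPM per line, which equal the leaf means within 1e-06, the larger group mean (a signal on the TPM scale), a signed fold change, a log2 fold change and p-values from a test that is not stated. By the authors' adjusted p-value, 4.05% of 79668 transcripts and 10 of 125 with the description lay under 0.05.

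TPM were summed per gene. Genes with at least 1 TPM in 2 leaves (44247) were tested with limma 3.58.1 (R 4.3.3) on log2(TPM + 1), with variance trend and robust shrinkage; tables used Python 3.11.15 and pandas 2.3.3. This scale shrinks differences near 0. The method was also run on simulated data with independent normal noise for each gene. Such data hold no shift shared by genes within a leaf, so they cannot show how reliable the calls are here. For the lists, a gene's Arabidopsis match is that of its most abundant matched transcript, available for 99507 genes. Named were all one-line copies and the most abundant others up to 30; at most 2 called genes per list and direction; and, chosen after their values were seen, the near-threshold copies, those sharing a protein record, 1 copy below the filter and 2 RPA copies. Members and lists were chosen with earlier results of these data known. Alternatives were other filters, pseudocounts, scalings, variance priors, detection bounds, neighbour windows, each leaf left out and the replicate number as a block. Chosen after seeing the data were 3 more: a crossed pairing, described transcripts alone and a stricter filter without 1 leaf. No sequences of these genes were used here.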

Additional observations from a re-analysis of the deposited data

How the results depend on the processing

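The counts of called copies, 13 higher and 8 lower in the hairy line, stayed within 1.5 times under other pseudocounts, scalings and variance priors, without a low-value filter and with described transcripts alone. With a filter of 5 TPM there were 6 higher and 2 lower, and 5 calls in the 3 context lists against 8, because fewer genes were tested (29 of the group). Without 1 leaf, limma with the lone leaf assumed to vary like the others gave 4 to 8 higher, 2 to 5 lower, a median difference of -0.56 to 0.17 and 4 to 6 list calls; with 1 TPM required in 2 leaves it gave 0 to 11 higher and 1 to 2 lower. The cause was not tested. At 2 TPM as the lower bound, 5 copies were hairy-only and 1 glabrous-only; without 1 leaf the counts were 8 to 11 and 4 to 5. With the replicate number as a block, 12 copies were called higher and 8 lower, and the deviations of leaves with the same number correlated at -0.41 across genes; with the numbers crossed, 13 were higher and 11 lower. Of the 14 called genes named by rule, 5 kept the call in every alternative run, and none changed sign. The unknown depth limits what a value listed at 0 can show.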
